A study of Mus musculus with 9 samples.

Results

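Cells of the colon of mice given a mixture of antibiotics were compared with cells of untreated mice kept specific pathogen free (SPF), by single cell RNA sequencing. The comparison holds every barcode of 1 antibiotic library and 2 untreated SPF libraries that had at most 15% of its counts from mitochondrial transcripts and at least 200 genes, which left 7479 cells of 31759 in the whole series. Of these, 2615 cells came from SPF 1, 2431 from SPF 2 and 2433 from the antibiotic library. All 3 libraries hold CD11b+ cells of the colonic lamina propria of male wild-type C57BL/6 mice aged 7 to 8 weeks. The treated mice drank ampicillin at 1 g/L, vancomycin at 0.5 g/L, neomycin sulfate at 1 g/L and metronidazole at 1 g/L. The labels give 1 week of treatment, add that it was at times longer, and do not say how long it was for this library. They also do not say how many mice a library holds or whether the SPF libraries come from separate mice, so the spread between SPF 1 and SPF 2 may be technical.

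The lamina propria below the gut epithelium is filled with immune cells that live beside the gut bacteria. Monocytes enter it from the blood and mature into macrophages, which clear debris and bacteria, while dendritic cells carry antigen to lymph nodes and instruct T cells. Plasma cells there secrete IgA, the antibody that coats gut bacteria. Mixtures of oral antibiotics deplete gut bacteria, and ampicillin, vancomycin, neomycin and metronidazole together cover aerobic and anaerobic species. The number of bacteria left in these mice is not among the data used here. The comparison asks which cells and which of their transcripts differ when antibiotics are given to an adult SPF mouse.

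Each count is 1 unique molecular identifier (UMI), meaning 1 captured RNA molecule near its 3' end. Kept cells had a median of 5112 UMIs in SPF 1, 5141 in SPF 2 and 3342 in the antibiotic library, so the treated cells were read less deeply. Over all barcodes the libraries hold 22191774, 20568541 and 13243317 UMIs. Barcodes over 15% mitochondrial counts made up 17.6% of SPF 1, 10.1% of SPF 2 and 5.28% of the antibiotic library. SPF 1 stood apart from both other libraries by a cluster of shallow cells led by the transcripts Gm26917 and Gm42418, which held 13.04% of its cells against 0.95% of SPF 2 and 2.79% of the antibiotic library. That cluster was left unnamed. The antibiotic library shared 2 kept barcodes with SPF 1 and 13 with SPF 2. Across the 3 libraries, 393 cells (5.25%) held markers of another lineage beside their own, and they were kept.

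The cells fell into 22 clusters, of which 17 were given 14 class names from marker genes. Each name is followed by "-like" since no protein was measured. The CD11b+ sort should leave mostly myeloid cells, but the named myeloid classes made up 50.5% of SPF 1, 59.0% of SPF 2 and 49.2% of the antibiotic library. A UMI of Itgam, which encodes CD11b, was found in 70.6% to 77.7% of monocyte-like cells per library, against 3.2% to 8.4% of B cell-like cells and 2.4% to 6.8% of fibroblast-like cells. The lymphoid, stromal and epithelial shares given here are therefore shares among cells that passed the sort, and how the sort set them was not tested.

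With 1 treated library no test is possible and no p-value is given. A share carries its exact 95% binomial interval and a level its exact 95% Poisson interval, both of which cover counting error only. The distance between SPF 1 and SPF 2 stands for the spread between libraries.

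The mononuclear phagocytes made up a smaller share of the antibiotic library than of either SPF library. Monocyte-like, macrophage-like and dendritic cell-like cells together made up 40.3% of SPF 1, 35.6% of SPF 2 and 23.8% of the antibiotic library. Within them, monocyte-like cells and conventional type 2 dendritic cell-like (cDC2-like) cells lay below both SPF libraries. The smaller share was not seen in every class, since macrophage-like and cDC1-like cells lay between the SPF libraries.

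Monocyte-like cells, led by Chil3, F10, Lyz2 and F13a1, made up 21.5% of SPF 1, 10.9% of SPF 2 and 8.38% of the antibiotic library. The antibiotic share, with an interval of 7.31% to 9.56%, was 1.295-fold below the lower SPF share, whose interval of 9.65% to 12.2% did not overlap it. The SPF libraries themselves differed by 1.98-fold, more than the antibiotic library differed from SPF 2. Counted among the myeloid classes alone, monocyte-like cells made up 42.5%, 18.4% and 17.04%, and there the intervals of SPF 2 and the antibiotic library overlapped. cDC2-like cells, led by Cd209a, Mgl2 and Clec10a, made up 10.98% of SPF 1, 15.8% of SPF 2 and 8.67% of the antibiotic library. Here the antibiotic interval of 7.58% to 9.86% just met that of SPF 1, which began at 9.80%. Macrophage-like cells, led by C1qa, Pf4 and Ms4a7, stood at 5.32%, 2.92% and 3.08% in the same order. The cDC1-like cells, which carry Xcr1 and Clec9a and cross-present antigen to CD8 T cells, stood at 1.80%, 5.27% and 2.14%.

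Migratory DC-like cells were the exception among the dendritic cells. These cells, marked by Ccr7 and Fscn1 and known to travel to lymph nodes, numbered 20, 17 and 37 and made up 0.76%, 0.70% and 1.52% of the libraries. The antibiotic share was 1.99-fold the higher SPF share, but its interval still touched that of SPF 1, and a gate applied to each cell placed it between the SPF libraries.

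B cell-like and T cell-like cells held larger shares of the antibiotic library, and plasma cell-like cells a smaller one. B cell-like cells made up 6.85% of SPF 1, 16.2% of SPF 2 and 19.5% of the antibiotic library, whose interval began at 18.0%, above the 17.7% at which that of SPF 2 ended. T cell-like cells made up 8.49%, 11.3% and 14.6%, again with intervals apart. Both differences from SPF 2 were smaller than the distance between SPF 1 and SPF 2, which was 2.36-fold for B cell-like and 1.33-fold for T cell-like cells, against 1.21-fold and 1.298-fold between the antibiotic library and SPF 2. Plasma cell-like cells numbered 194, 49 and 19. They made up 7.42% of SPF 1, 2.02% of SPF 2 and 0.78% of the antibiotic library (0.47% to 1.22%), which put the antibiotic library 2.58-fold below the lower SPF library. The SPF libraries were 3.68-fold apart. A further cluster of dividing cells, closest to plasma cells by its markers but unnamed because cell cycle genes led it, held 51, 6 and 6 cells.

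The share of granulocytes was not smaller in the antibiotic library. Eosinophil-like cells, marked by Ccr3 and Alox15, were the most numerous class of the antibiotic library at 22.6%, beside 7.04% of SPF 1 and 20.3% of SPF 2. The interval of 20.9% to 24.3% overlapped that of SPF 2. Counted among the myeloid classes alone, eosinophil-like cells made up 13.9%, 34.4% and 45.9%, and there the antibiotic interval lay apart from both. Neutrophil-like cells stood at 3.14%, 3.13% and 2.84%, a difference within counting error.

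Stromal cells took up more of the antibiotic library. Fibroblast-like cells, which make collagen, were at 2.79% in SPF 1 and 2.80% in SPF 2, which thus agreed closely, and at 5.18% (4.33% to 6.14%) in the antibiotic library. This was 1.85-fold the higher SPF share, with intervals apart. Endothelial-like cells, led by the lymphatic genes Ccl21a, Mmrn1 and Lyve1, numbered only 5, 1 and 19. Epithelial-like cells numbered 102, 5 and 23 and followed no group.

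**Figure D1:**
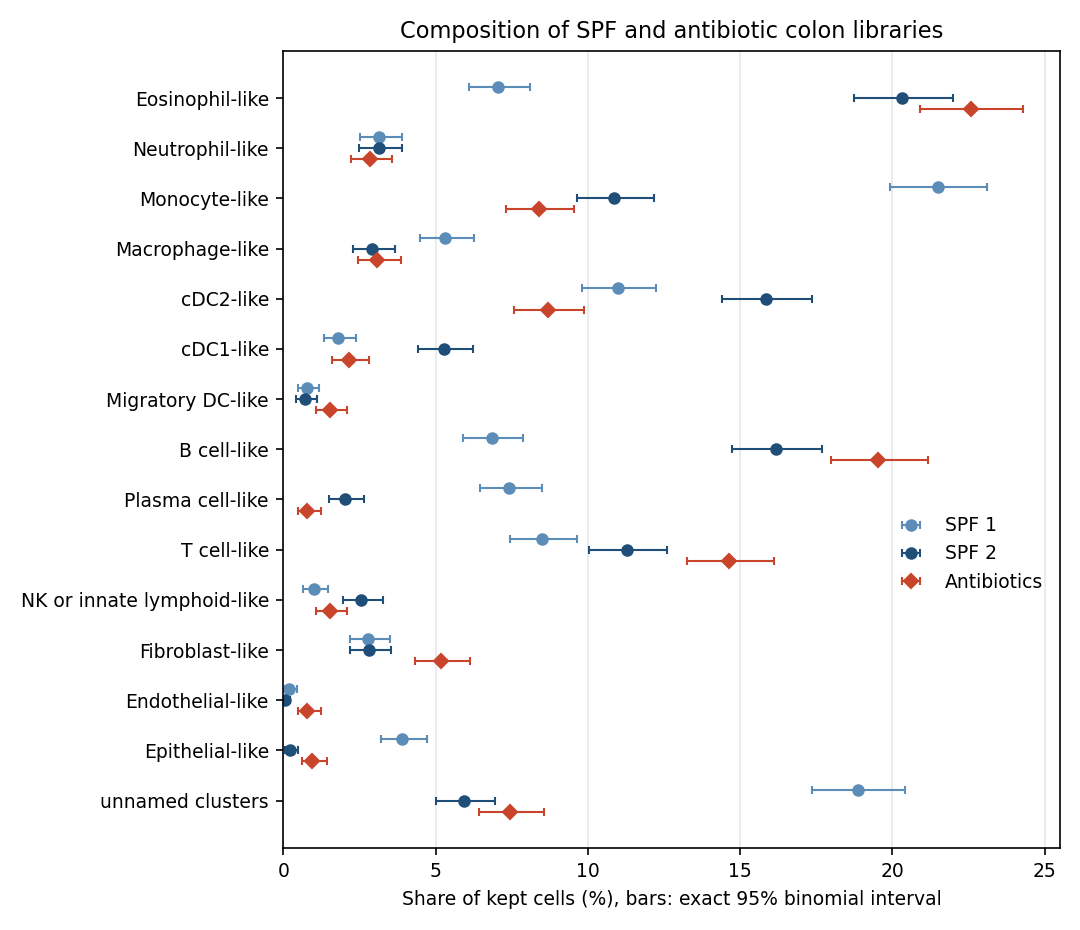
Share of kept cells in each class (x axis, percent) for SPF 1 and SPF 2 (circles) and the antibiotic library (diamonds), with bars for the exact 95% binomial interval. The antibiotic diamond lies clear of both circles for monocyte-like and plasma cell-like cells on the low side and for B cell-like, T cell-like, fibroblast-like and endothelial-like cells on the high side, while the 2 SPF circles are often as far from each other.

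Set beside the same classes in germ-free colon, which the series measured in 2 libraries, cells were kept in the same way and given the class of their nearest neighbours among the clustered cells. Monocyte-like cells made up 3.66% and 5.45% of the germ-free libraries, fibroblast-like cells 2.83% and 5.06%, and plasma cell-like cells 3.10% and 0.49%. Any comparison of antibiotic and germ-free colon with SPF colon uses the same 2 SPF libraries, so the values are given only side by side.

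For transcripts, the UMIs of each gene were added up by class and library and scaled to the class total, as counts per 1e6 UMIs (CPM). A gene was called higher in the antibiotic library when it lay at least 2-fold above the higher SPF library, and lower when it lay at least 2-fold below the lower one, after adding 5 CPM. Genes with at least 10 UMIs over the 3 libraries were compared in the 9 classes or clusters with at least 50 cells in each library. Log2 differences are given on this scale. Since sums over few cells can rest on 1 cell, the share of a gene's UMIs held by its top cell is given where it is large.

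Few genes were called in the larger classes. The share of genes called in either direction ran from 0.174% in B cell-like cells to 8.54% in neutrophil-like cells. In each class it was smaller than the share of the same genes that differed 2-fold between the SPF libraries, which ran from 3.55% in cDC2-like cells to 25.8% in neutrophil-like cells. The 2 measures are built differently, since a call has to clear both SPF libraries. Pair by pair, fewer genes lay 2-fold apart between the antibiotic library and SPF 2 than between SPF 1 and SPF 2, in all 9 classes. These shares were 0.639% against 3.55% in cDC2-like, 1.33% against 4.18% in monocyte-like and 14.2% against 15.1% in macrophage-like cells. Between the antibiotic library and SPF 1 they were 3.07%, 3.88% and 14.0%. A distance from the SPF mean thus takes in the distance of SPF 1 from SPF 2.

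**Figure D2:**
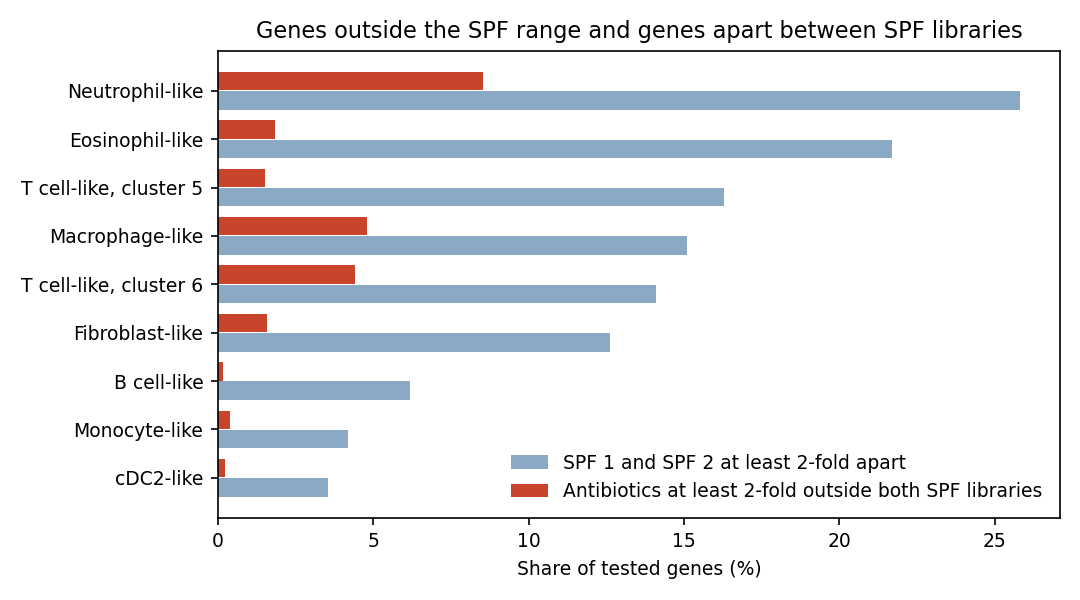
Share of compared genes (x axis, percent) called in either direction in the antibiotic library and the share at least 2-fold apart between SPF 1 and SPF 2, per class. The share between the SPF libraries is the larger in all 9 classes, from 3.55% in cDC2-like to 25.8% in neutrophil-like cells.

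Monocyte-like cells of the antibiotic library carried more transcripts of chemokines and cytokines than those of either SPF library, and less of the monocyte gene Ly6c2. In all, 21 of 10901 genes (0.193%) were called higher and 22 (0.202%) lower. Of 19 inflammatory cytokine and chemokine genes measured, 3 were called higher, none lower, and 17 lay above both SPF libraries, a position held by 28.1% of all genes compared. The median of the list was 0.80 above the SPF mean, beside -0.02 for all genes. Much of this distance came from SPF 1, since the median was 1.13 above SPF 1 and 0.29 above SPF 2, and SPF 2 itself lay 0.58 above SPF 1.

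Ccl7, which recruits monocytes through CCR2, stood at 55.7 CPM in SPF 1, 42.0 in SPF 2 and 128 (110 to 147) in the antibiotic library, and both SPF intervals lay below. Ccl2, the chief ligand of the same receptor, stood at 243, 224 and 481 CPM, a difference of 0.97 from the nearer SPF library that fell just short of the 2-fold rule, though it met it under TMM scaling. Both chemokines were thus near one another in the SPF libraries and higher in the antibiotic library. Tnf stood at 396, 757 and 900 CPM, and the antibiotic library was above SPF 2 by 0.25. For Tnf, as for Il6 (69.5, 328 and 377 CPM), the SPF libraries lay farther apart than the antibiotic library lay from SPF 2.

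Il12b, a subunit of IL-12 and IL-23, stood at 22.3, 16.1 and 78.3 CPM, but 6 of 204 antibiotic cells carried it and 1 cell held 60.3% of its UMIs. Inhba, which encodes activin A, stood at 87.2, 90.4 and 205 CPM, and without its top cell the gene was no longer called. Il10, which restrains inflammation, was also above both SPF libraries, at 443, 907 and 1215 CPM. In the gate applied to each cell, which forms a smaller monocyte-like class (15.6%, 9.67% and 6.17%), the calls of Ccl7 and Il12b were lost and Ccl7 lay just below the SPF mean. Without the top cell of each gene, 8 genes (0.0734%) were called higher and 28 (0.257%) lower.

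Of 20 genes of lipid handling and the lysosome measured in monocyte-like cells, Cd36 was called higher and none lower, with a list median of -0.17. Cd36, a scavenger receptor, stood at 40.2, 47.9 and 150 CPM. Ace, the angiotensin-converting enzyme, high in patrolling monocytes, stood at 15.01, 43.2 and 101 CPM. Ly6c2, the mark of newly arrived monocytes, stood at 988, 991 and 483 CPM and was found in 61.2%, 76.5% and 42.6% of cells. It is a marker of the class, and its call was lost under TMM scaling and without cells holding markers of another lineage. The class markers Plac8 (2157, 2286 and 1566 CPM) and Ms4a4c (325, 323 and 231 CPM) were below both SPF libraries by under 2-fold. Dnase1l3, a secreted DNase, stood at 176, 187 and 60.8 CPM. Il22ra2, a soluble inhibitor of IL-22, was carried by 8 of 562 and 5 of 264 SPF cells at 66.6 and 66.8 CPM. No UMI of it was found in the 204 antibiotic cells, which allows up to 1.47% of cells. That is about the share of SPF cells that carried it, so a difference in the share of cells was not detectable at this depth. The calls of Cd36, Ace, Ly6c2, Dnase1l3 and Il22ra2 were lost in the gate applied to each cell. In macrophage-like cells Il22ra2 stood at 4.72, 29.4 and 113 CPM with 2, 3 and 5 cells carrying it.

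cDC2-like cells showed the same list with less spread between the SPF libraries. Among 11265 genes, 25 (0.222%) were called higher and 2 (0.0178%) lower. Of 18 inflammatory genes measured, 4 were called higher (Il1a, Ccl4, Ccl5 and Ccl7), none lower, and 16 lay above both SPF libraries, against 29.4% of all genes. The median of the list was 0.88 above SPF 1 and 0.75 above SPF 2, while SPF 2 lay 0.13 above SPF 1.

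Ccl4, an inflammatory chemokine, stood at 160 CPM in SPF 1, 185 in SPF 2 and 475 (448 to 503) in the antibiotic library, and 42.7% of antibiotic cells carried it against 26.8% and 24.9%. Ccl5, a chemokine that attracts T cells, stood at 40.3, 78.9 and 233 CPM. Il1a, which encodes an alarm cytokine, stood at 3.05, 4.81 and 22.1 CPM, carried by 7 of 287, 17 of 385 and 23 of 211 cells. In all of these genes the SPF intervals lay below the antibiotic interval, and the top cell held at most 15.5% of the antibiotic UMIs. For Ccl7 (2.37, 1.60 and 14.0 CPM), 1 cell held 71.4%. Il10 was higher here as well, at 36.9, 37.6 and 77.8 CPM, a difference of 0.96 that was not called. Ccl4, Ccl5 and Il1a were called under each alternative, and Ccl7 was not, with the gate or without its top cell. With each gene's top cell left out, 8 genes (0.071%) were called higher and 3 (0.0266%) lower.

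Of 23 type I interferon response genes measured in cDC2-like cells, 3 were called higher and none lower, but the median stood at -0.06, close to that of all genes. Ifit1, which binds viral RNA, stood at 13.6, 14.4 and 83.8 CPM, and its call was lost with the gate. Oasl1 stood at 27.1, 39.0 and 118 CPM and was carried by 59 of 211 antibiotic cells. Rsad2, which encodes viperin, stood at 43.4, 28.5 and 102 CPM, and its call was lost without its top cell. Igha in these cells (581, 232 and 2413 CPM) was held to 91.7% by 1 antibiotic cell, without which it lay below the SPF mean.

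Macrophage-like cells gave fewer firm values. The libraries held 139, 71 and 75 of them, at medians of 3778, 4699 and 2259 UMIs, so the antibiotic cells were the shallowest. Among 8048 genes, 96 (1.19%) were called higher and 290 (3.6%) lower. Of 14 inflammatory genes, Ccl7 and Il6 were called higher and none lower, and the list median was 1.13 above SPF 1 but 0.26 below SPF 2 (log2 ratio -0.26). Ccl7 stood at 237, 366 and 934 (828 to 1050) CPM and was carried by 23 of the 75 antibiotic cells. Il6 stood at 4.72, 41.1 and 123 CPM, from 3, 6 and 10 cells. Ccl2 stood at 344, 178 and 654 CPM. Of the whole list, 5 genes lay above and 1 below both SPF libraries, and the rest lay between them, among them the neutrophil chemokine Cxcl2 (5594, 12514 and 10388 CPM).

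**Figure D3:**
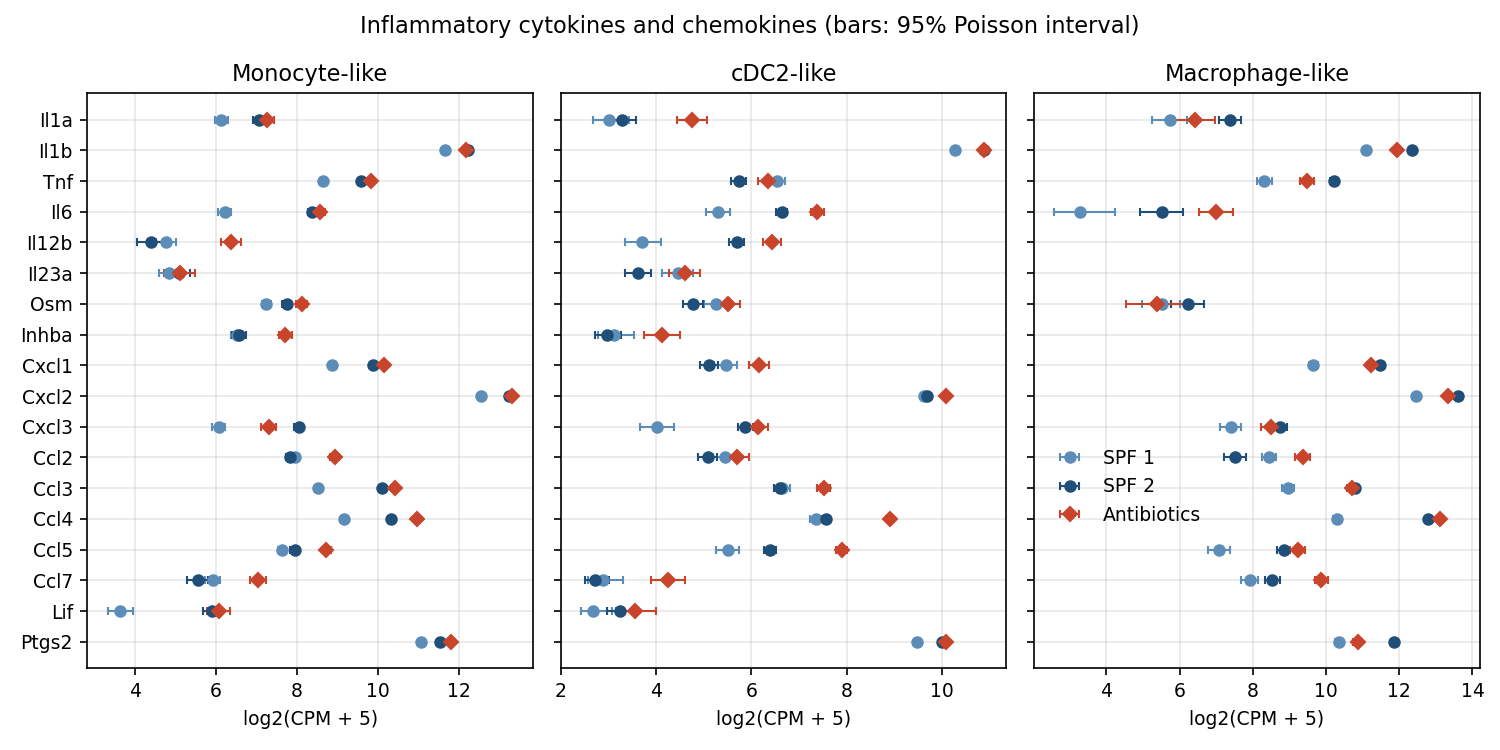
Levels of inflammatory cytokine and chemokine genes, log2(CPM + 5), in monocyte-like, cDC2-like and macrophage-like cells of SPF 1, SPF 2 (circles) and the antibiotic library (diamonds), with 95% Poisson intervals. In cDC2-like cells the antibiotic diamond lies to the right of both circles for 16 of 18 genes measured, while in macrophage-like cells it mostly lies between them.

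Of 22 type I interferon response genes in macrophage-like cells, 4 were called higher (Ifit1, Ifit2, Ifit3 and Cmpk2) and 1 lower (Irf7), with 11 above and 4 below both SPF libraries, beside 32.3% and 31.7% of all genes. The median was 0.90 above SPF 1 and 0.32 above SPF 2. Ifit3 stood at 14.1, 5.87 and 63.4 CPM from 8, 2 and 6 cells, and Ifit1 (6.29, 97.9 and 317 CPM) was held to 57.9% by 1 cell. Irf7, the master regulator of the same response, stood at 62.9, 80.3 and 20.0 CPM. Genes called lower included Hsph1, a chaperone (99.0, 88.1 and 13.3 CPM), Vegfa, which drives vessel growth (51.9, 106 and 20.0 CPM), and Smad7, an inhibitor of TGF-beta signalling (129, 182 and 56.7 CPM). Ccl8, a chemokine of resident macrophages that also led the cluster, stood at 270, 335 and 110 CPM, and its call was lost without its top cell. The gate applied to each cell found a larger macrophage-like class, 13.4%, 3.95% and 4.64% of the libraries, and in it the calls of Il6, Il22ra2, Ifit1, Ifit2, Ifit3, Cmpk2, Hsph1, Vegfa, Smad7 and Ccl8 were lost, while those of Ccl7 and Irf7 were not. When the top cell of every gene was dropped, 70 genes (0.87%) were called higher and 455 (5.65%) lower.

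Neutrophil-like cells of the antibiotic library had lower levels of some interferon response genes. Of 4392 genes, 61 (1.39%) were called higher and 314 (7.15%) lower, in 82, 76 and 69 cells read at low depth. Of 20 type I interferon response genes, 4 were called lower (Ifit1, Ifit2, Stat2 and Zbp1), none higher, and 13 lay below both SPF libraries, against 37.2% of all genes. The median was -0.70 against SPF 1 and -0.64 against SPF 2, beside -0.07 for all genes compared.

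Ifit1 was carried by 9 of 82 and 8 of 76 SPF neutrophil-like cells, at 95.2 and 184 CPM. In none of the 69 antibiotic cells was a UMI of it found, which allows up to 4.35% of cells. Trim30a, another interferon-induced gene, stood at 271, 189 and 43.2 CPM from 31, 23 and 7 cells, and Ifi207 at 114, 99.5 and 24.7 CPM. Ffar2, the receptor through which neutrophils sense short-chain fatty acids of bacterial origin, stood at 138 and 59.7 CPM in 9 of 82 and 7 of 76 SPF cells and was found in none of the 69 antibiotic cells, with the same limit of 4.35%. Plau, the urokinase gene, was among those called higher at 9.52, 9.95 and 74.0 CPM from 2, 2 and 7 cells. Metrnl, a secreted regulator of inflammation, stood at 66.6, 54.7 and 167 CPM. The calls of Ifi207, Plau, Metrnl and Zbp1 were lost with the gate. Those of Ifit2, Stat2, Zbp1, Ifi207, Ffar2 and Plau were lost with a minimum of 50 UMIs, and that of Ifit2 also without its top cell. No UMI of Ifit2 was found in the antibiotic cells, which allows up to 18.5 CPM against 19.9 in the lower SPF library. The calls of Ifit1 and Trim30a held under each alternative. Leaving out the top cell of each gene, 68 genes (1.55%) were called higher and 449 (10.2%) lower.

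In eosinophil-like cells, 91 of 7247 genes (1.26%) were called higher and 41 (0.566%) lower. These cells were shallow in all libraries but less so in the antibiotic one, at medians of 719.5, 885 and 1167 UMIs. The firmest calls were of genes spread over many cells. Adora2a, an adenosine receptor that dampens immune cells, stood at 51.3, 58.1 and 147 (120 to 179) CPM and was carried by 8 of 184, 23 of 494 and 78 of 549 cells. Rara, a retinoic acid receptor, stood at 19.2, 29.0 and 79.4 CPM, and Pik3r6, a regulatory subunit of PI3K gamma, at 19.2, 18.7 and 75.0 CPM. No cell held over 5.77% of the antibiotic UMIs of these 3 genes. In contrast, Il6 (12.8, 10.4 and 267 CPM) came from 12 antibiotic cells with 53.0% in 1 of them, and Csf2 from 1 cell alone. Of 17 genes of granulocyte activation, none was called in either direction. MHC class II genes, which mark antigen-presenting cells and not eosinophils, had a median of -0.71 over 10 members with 2 called lower, and Lyz2, a myeloid lysozyme, stood at 89.8, 78.8 and 21.6 CPM. Without the top cell of each gene, 206 genes (2.84%) were called higher and 34 (0.469%) lower.

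The T cell-like cells formed 3 clusters, of which 1 lay clear above both SPF libraries. Cluster 12, led by Lef1, Tcf7 and S1pr1, genes of naive T cells that recirculate, held 26, 54 and 117 cells. It made up 0.99% of SPF 1, 2.22% of SPF 2 and 4.81% (3.99% to 5.74%) of the antibiotic library, with intervals apart, or 11.7%, 19.7% and 32.9% of all T cell-like cells. It was also large in germ-free colon, at 4.55% and 8.19%. Cluster 5, led by Icos, Ctla4 and Tnfrsf4 of activated and regulatory CD4 T cells, made up 1.91%, 6.17% and 6.70%. Cluster 6, led by Gzma and Cd8a of cytotoxic cells, made up 5.58%, 2.88% and 3.12%. The antibiotic library thus resembled SPF 2 in both effector clusters and lay above both SPF libraries in cluster 12. An unnamed cluster was led by the mast cell protease genes Mcpt1, Mcpt2 and Mcpt4, carried by few of its cells, with Il22, Il5 and Gata3, products and regulator of innate lymphoid cells, also among its leading genes. It held 20, 32 and 66 cells (0.76%, 1.32% and 2.71%), with intervals apart.

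**Figure D4:**
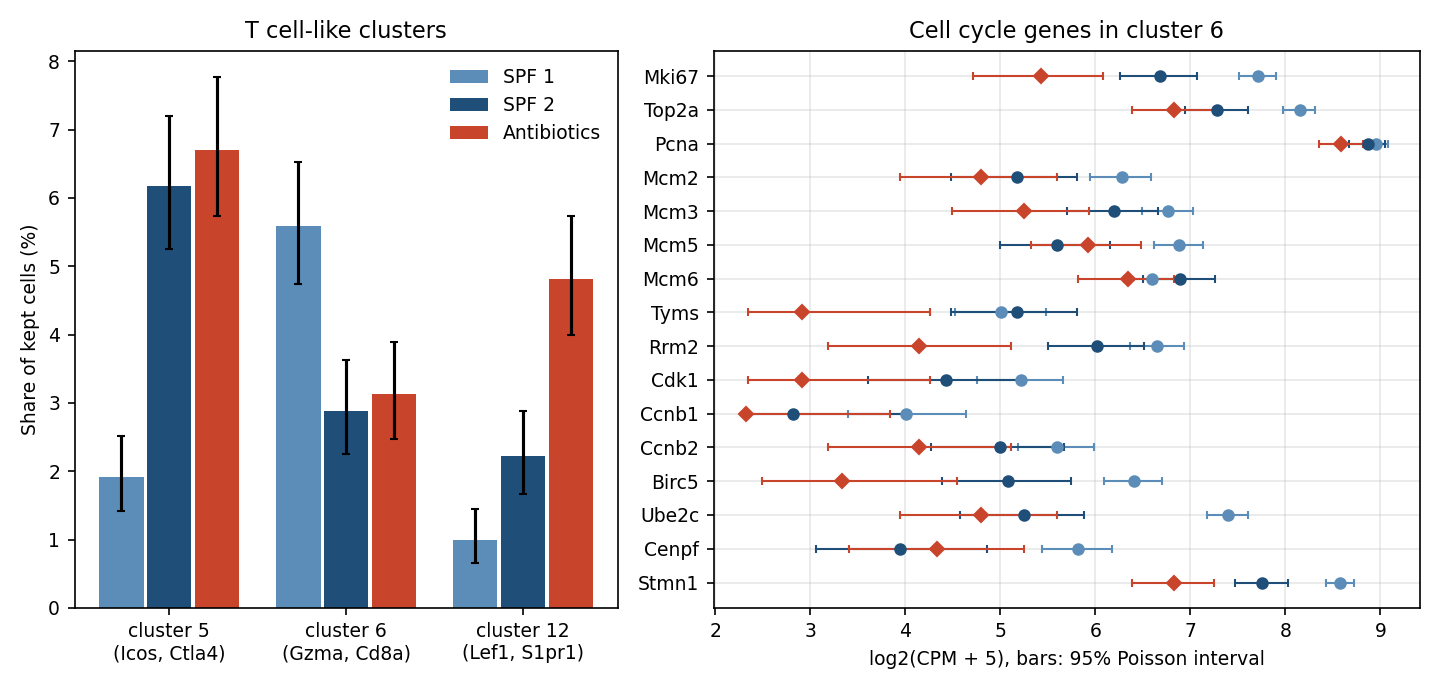
Left, share of kept cells (percent, bars from 0, with exact 95% binomial intervals) in the 3 T cell-like clusters. Right, levels of 16 cell cycle genes in cluster 6, log2(CPM + 5) with 95% Poisson intervals. Cluster 12 is the largest in the antibiotic library at 4.81% of cells, and in cluster 6 the antibiotic diamonds lie to the left of both SPF circles for 14 of 16 genes.

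Shares of cells with a UMI of a subset gene give the make-up of all T cell-like cells. Cd8a was found in 41.0% of them in SPF 1, 21.2% in SPF 2 and 14.6% in the antibiotic library. Cd4 was found in 18.0%, 47.4% and 35.7%. After each cell was thinned to 1000 UMIs, which left out at most 2 cells per library, these shares were 19.9%, 7.72% and 5.08% for Cd8a and 7.24%, 18.0% and 15.5% for Cd4. Ifng, the type 1 effector cytokine, was found in 32.0%, 30.7% and 19.9% of T cell-like cells, and thinned in 14.9%, 15.1% and 9.89%. Within cluster 6 Ifng was found in 35.6%, 45.7% and 42.1% of cells, between the SPF libraries. In cluster 5 it was found in 36.0%, 34.7% and 23.3%, and thinned in 22.4%, 15.4% and 12.4%, below both SPF libraries. In cluster 12 it was found in 1 of 26, 0 of 54 and 1 of 117 cells. How far the sizes of the clusters set the share of all T cell-like cells with Ifng was not tested. Foxp3, the regulatory T cell factor, was found in 7.21%, 12.04% and 7.87%, and thinned in 1.36%, 4.41% and 4.52%, where the antibiotic share lay between the SPF libraries before thinning and next to that of SPF 2 after it. In B cell-like cells, which should lack these genes and had median depths of 2928, 4235 and 3057 UMIs against 4969, 5235 and 4178 in T cell-like cells, Cd4 and Cd8a were in no cell and Ifng in at most 1.02%.

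In cluster 6, the cytotoxic T cell-like cells, 75 of 8819 genes (0.85%) were called higher and 313 (3.55%) lower, and the lower ones included genes of cell division. Of 16 cell cycle genes, 5 were called lower (Mki67, Tyms, Rrm2, Cdk1 and Birc5), none higher, and 14 lay below both SPF libraries, against 34.9% of all genes. The median was -1.60 against SPF 1 and -0.70 against SPF 2, and SPF 2 lay -0.85 from SPF 1. Mki67, the proliferation marker, stood at 204, 97.2 and 37.96 CPM from 36 of 146, 11 of 70 and 7 of 76 cells. Rrm2, which supplies nucleotides for DNA synthesis, stood at 95.6, 60.0 and 12.7 CPM. Trdc, the constant chain of the gamma-delta T cell receptor, stood at 266, 143 and 45.6 CPM and was carried by 53, 9 and 6 cells. These lower values rest on few antibiotic cells, and a smaller share of gamma-delta cells and less transcript per cell cannot be told apart here. S100a8 and S100a9, neutrophil genes, were called higher but came to 97.7% and 98.9% from 1 antibiotic cell. If each gene's top cell was left out, 50 genes (0.567%) were called higher and 420 (4.76%) lower, with 7 cell cycle genes among the latter.

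In cluster 5, the CD4 T cell-like cells, 47 of 8525 genes (0.551%) were called higher and 81 (0.95%) lower. Among 17 measured genes of T and innate lymphoid effector function, Il17f was called higher and Areg lower. Il17f, which calls in neutrophils, stood at 36.5, 16.0 and 134 CPM but came from 1, 5 and 7 cells, and 1 antibiotic cell held 62.2%. Its partner Il17a stood at 260, 259 and 302 CPM, and Foxp3 at 183, 119 and 113 CPM, so neither was called. Ifng stood at 356, 262 and 156 CPM, below both SPF libraries by 0.73 and not called. Areg, a growth factor for tissue repair, stood at 101, 105 and 45.1 CPM, and its call was lost without its top cell. Penk, the precursor of enkephalin peptides, was carried by 5 of 50 and 5 of 150 SPF cells at 210 and 73.1 CPM and by none of the 163 antibiotic cells, which allows up to 1.84% of cells. Once the top cell of each gene was left out, 68 genes (0.798%) were called higher and 55 (0.645%) lower.

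B cell-like cells had the smallest share of called genes. Of 9755 genes, 10 (0.103%) were called higher and 7 (0.0718%) lower. The genes called higher were led by the heat shock genes Hspa1b (77.8, 83.3 and 281 CPM) and Hspa1a (54.5, 77.5 and 246 CPM), which rise in many cells when tissue is handled. Ifi27l2a, induced by interferon, was lower at 328, 170 and 73.9 CPM. With each gene's top cell left out, 14 genes (0.144%) were called higher and 6 (0.0615%) lower. Of the 20 measured genes of stress and tissue dissociation, these 2 heat shock genes were the only ones called in B cell-like cells, and the list median was 0.09.

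Plasma cell-like cells, though few in the antibiotic library, were mostly of the IgA isotype in all 3 libraries. The heavy chain with most UMIs was Igha in 176 of 194 cells of SPF 1 (90.7%), in 49 of 49 of SPF 2 and in 18 of 19 of the antibiotic library (94.7%, interval 74.0% to 99.9%). With 19 cells, smaller differences in this share were not detectable.

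Immunoglobulin transcripts found in cells that do not make them were called lower in some classes and higher in others. The antibiotic library held the smallest share of plasma cell-like cells. Igkc, the kappa light chain, was called lower in eosinophil-like, macrophage-like, monocyte-like cells and cluster 5. In monocyte-like cells it stood at 646, 956 and 117 CPM, in macrophage-like cells at 1125, 1724 and 210 CPM, in eosinophil-like cells at 3386, 958 and 472 CPM and in cluster 5 at 630, 541 and 167 CPM. In SPF 2, 1 cell held 76.9% of the monocyte-like and 75.8% of the macrophage-like UMIs. Igha was called lower in macrophage-like cells (1281, 1480 and 344 CPM). In cluster 6, 4 of 8 immunoglobulin genes were called higher and none lower, with a median of 0.76, and in cDC2-like cells 3 of 11 were called higher and none lower. Of all genes, 0.85% were called higher in cluster 6 and 0.222% in cDC2-like cells. Without the top cell of each gene, no immunoglobulin gene was called in either, and the medians were -0.43 and -0.68. Igha in cluster 6 stood at 685, 343 and 24488 CPM with 98.7% of the antibiotic UMIs in 1 cell. Ighm in fibroblast-like cells (16.9, 3.12 and 91.8 CPM) was called higher with 73.2% in 1 cell. The part of free RNA from plasma cells in these values was not tested.

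**Figure D5:**
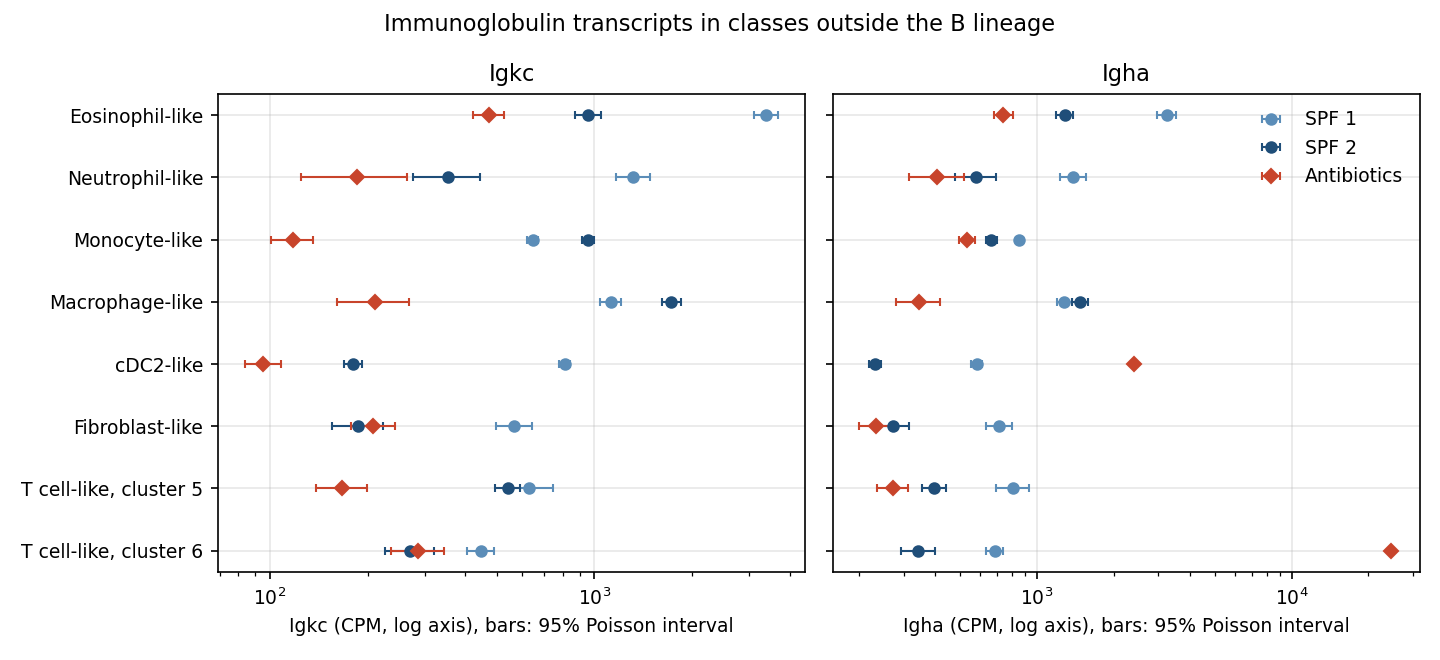
Igkc and Igha transcripts (CPM, log axis, 95% Poisson intervals) in classes outside the B lineage. For Igkc the antibiotic diamond is the lowest in 6 of 8 classes, as in macrophage-like cells at 210 CPM against 1125 and 1724, while the high Igha values of cDC2-like cells and of cluster 6 in the antibiotic library stand far to the right.

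Fibroblast-like cells of the antibiotic library had a higher level of Ccl2 and lower levels of several genes known from myeloid cells. Of 10657 genes, 76 (0.713%) were called higher and 91 (0.854%) lower. Ccl2 stood at 74.8, 53.0 and 265 (230 to 304) CPM, carried by 11 of 73, 12 of 68 and 20 of 126 cells, which is 15.1%, 17.6% and 15.9% of them. Ccl7 stood at 19.3, 21.8 and 77.6 CPM, with 66.7% in 1 cell, and its call was lost without that cell. Gas1, a growth arrest gene, stood at 79.6, 34.3 and 224 CPM. Pi15, a secreted peptidase inhibitor, stood at 36.2, 35.8 and 99.6 CPM from 10, 17 and 34 cells, and Plac9b at 45.8, 59.2 and 132 CPM from 16, 28 and 67 cells.

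The genes called lower in fibroblast-like cells included products of monocytes and macrophages. Il1b stood at 352, 641 and 37.5 CPM, Il1rn at 236, 223 and 23.3 CPM and Cd14 at 84.5, 103 and 7.76 CPM. Of 14 complement genes, 5 were called lower and none higher, namely the 3 C1q chains and the integrins Itgam and Itgb2. In SPF 1, 1 fibroblast-like cell held 78.1% of the Il1b UMIs and 1 held 85.7% of those of Il1rn. The calls of Il1rn and C1qb were lost without the top cell. Without the top cell of each gene, 103 genes (0.967%) were called higher and 52 (0.488%) lower. Markers of the macrophage-like class thus moved with these calls, and whether such cells carried RNA of a second cell was not tested.

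Across classes, Ccl7 was the gene called higher in the most classes, in fibroblast-like, macrophage-like, monocyte-like and cDC2-like cells, and lower in none. In macrophage-like cells that call held under each alternative, while it was lost with the gate in monocyte-like and cDC2-like cells and without the top cell in cDC2-like and fibroblast-like cells. Among genes called lower, Igkc was shared by 4 classes, and H2-DMb1, Iglc2, Ly6c2 and Tm7sf3 by 3 each. Iglc1 was called higher in monocyte-like cells, cluster 6 and cDC2-like cells, with 81.7%, 99.6% and 98.6% of its antibiotic UMIs in 1 cell each. Iglc2 and Ly6c2 were called higher in cluster 6, where 1 cell held 94.1% and 58.1% of the antibiotic UMIs. The call of H2-DMb1, which helps load peptide on MHC class II, rests on few UMIs. In eosinophil-like and neutrophil-like cells it was lost with a minimum of 50 UMIs, and in neutrophil-like cells the 18.5 CPM that a count of 0 allows lay above SPF 2 at 14.9 CPM. Ly6c2 was lower in eosinophil-like and fibroblast-like cells besides monocyte-like cells, at 25.7, 14.5 and 2.89 CPM and at 111, 14.0 and 1.29 CPM. Its call in fibroblast-like cells was lost with the gate, without cells holding markers of another lineage and without the top cell. In eosinophil-like cells the call was lost with a minimum of 50 UMIs and with the stricter cell filter. Whether free RNA of monocyte-like cells had a part in these values was not tested.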

How the data were processed

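CD11b+ colonic lamina propria cells were profiled with the 10x Genomics 3' kit (V3 per the labels). The authors deposited raw counts of UMIs for each gene in each barcode, made with Cell Ranger 3.0.2 (per the file headers), with STAR 2.5.1b and mm10 named in the submitters' processing notes. The deposited barcodes were taken as cells.

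Barcodes with at most 15% mitochondrial UMIs and at least 200 genes were kept. The SPF and antibiotic libraries were clustered together with Seurat 5.3.0 (R 4.3.3, 2000 variable genes, 30 components, Louvain resolution 0.8), with the genes of the lists and receptor segments left out of the variable genes, germ-free cells were given a class where 60% of 15 nearest neighbours shared it, and each cluster was named from 16 fixed marker lists (mean log2 fold of at least 1.2, at least 3 markers over 2-fold, a lead of 0.3). A gate applied to each cell was planned as the main class but left 69.9% of 1227 eosinophil-like cells ungated and called 246 of them (20.0%) neutrophils and 17 (1.39%) eosinophils, so the gated clusters were taken as the main classes after seeing the data, and the gate per cell became the alternative. The gate gave 4496 of 5434 named cells (82.7%) other than eosinophils the same class. This share was lowest in cDC2-like (58.8%) and monocyte-like cells (64.2%), and ran from 73.6% to 100% in the other classes. Of monocyte-like cells, 20.6% were gated as macrophages. Of cDC2-like cells, 17.0% were mixed and 11.9% gated as migratory DC. Scrublet (scanpy 1.11.5) called 20 of 7479 cells (0.267%), too few to be usable, so doublets were kept.

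CPM used the class total, log2 ratios a pseudocount of 5 CPM, and calls a minimum of 10 UMIs and a 2-fold distance from both SPF libraries. The call script was tested on simulated data. The 28 gene lists and the members were chosen with earlier results of these data known. Named genes were the 10 called genes in each direction farthest from the SPF libraries at 50 CPM or more (immunoglobulin, T cell receptor, mitochondrial, ribosomal, haemoglobin and predicted genes and markers of other classes left out), genes called in at least 3 classes, up to 4 members of each list and class markers. Some named values outside this rule (Il10, Plau and genes given beside a listed one) were picked after their values were seen. Alternatives were a stricter cell filter, other denominators, TMM scaling (edgeR 4.0.16), pseudocounts and minimums, each SPF library left out and, added after seeing the data, the gate as above, shared barcodes, cells with markers of another lineage and each gene's top cell left out. No p-value was computed.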

Additional observations from a re-analysis of the deposited data

How the results depend on the processing

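Shares below are log2 ratios of the antibiotic share to the SPF mean. The smaller share of monocyte-like (-0.95), cDC2-like (-0.63) and plasma cell-like cells (-2.60) and the larger share of eosinophil-like (0.72), B cell-like (0.76), T cell-like (0.57) and endothelial-like cells (2.75), of cluster 12 (1.58) and of the unnamed cluster led by Mcpt1, Mcpt2 and Mcpt4 (1.38) moved by less than the SPF spread under each alternative that could be run. That spread is the standard deviation of the log2 SPF shares, so classes whose SPF libraries lie far apart meet it easily. For these classes, leaving out 1 SPF library could not move a share by more, so that alternative is no check. With the gate per cell, eosinophil-like cells made up 0.0765% of SPF 1, 0.3291% of SPF 2 and 0.3288% of the antibiotic library, which was then not above both. Migratory DC-like cells (1.06) gave 0.69 with the stricter cell filter, 0.37 and 0.28 with the gate per cell (mixed cells apart or given to the best class) and 1.196 among myeloid cells. Fibroblast-like cells (0.89), with SPF libraries almost equal, gave 0.75 with the stricter filter, 0.89 without shared barcodes, 0.94 without cells holding markers of another lineage and 0.93 and 0.91 with the gate. Neutrophil-like cells turned to 0.31 and 0.29 with the gate and to 0.00316 among myeloid cells. Summed over classes, the genes called higher numbered 502, or 1191 with a pseudocount of 1 CPM, 112 with at least 50 UMIs, 1628 with no minimum and 2276 to 4657 with 1 SPF library left out. The genes called lower numbered 1161, or 2632, 201 and 2468 to 4435 in the same order, the value with no minimum being within 1.5 times. TMM scaling gave 513 and 1140. Leaving out each gene's top cell gave 595 and 1502, of which 341 and 891 were the same genes. Of 101 calls of genes tracked by name, 40 held under each alternative run in their class, and 23 were lost without the top cell. Those that turned sign were Ccl7 in monocyte-like (-0.011) and cDC2-like cells (-0.21) with the gate, Igha (-0.82) and Jchain (-0.68) in cDC2-like cells without the top cell, Ccl4 in cluster 5 without cells holding markers of another lineage (-0.26), and S100a8 in cluster 6 with the gate (-0.027) and without such cells (-0.00125). The causes were not tested. For gene calls, leaving out 1 SPF library, a pseudocount of 1 CPM and no minimum could not lose a call, so these are no check. The gate per cell was not run in eosinophil-like cells or cluster 5, where it left fewer than 50 cells in a library. Calls in these 2 that held under each alternative thus did not face the gate. No paired analysis was possible because the single antibiotic library has no partner. The lower depth of the antibiotic library limits what can be seen of scarce transcripts, and 1 library per treatment leaves its spread unknown.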

Other observations

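Several gene groups that respond to bacteria or their products had few members called. Only 0.174% to 8.54% of all genes were called per class, so lists of this size would mostly have few or none called. Of 19 genes of Toll-like receptor sensing in monocyte-like cells and 17 in cDC2-like cells, none was called in either direction, with medians of 0.15 and 0.10. Of all genes, 0.193% were called higher and 0.202% lower in monocyte-like cells, and 0.222% and 0.0178% in cDC2-like cells. In other classes Ticam1 was called higher in macrophage-like cells, where the list median was 0.32, Tlr2 lower in cluster 6 and Cd14 lower in fibroblast-like cells. The call of Tlr2 was lost without the top cell of each gene. Feedback genes of NF-kB were not called in any of the 9 classes, and their medians ran from -0.01 in fibroblast-like cells to 0.36 in cluster 6. Inflammasome genes were not called in monocyte-like, macrophage-like or cDC2-like cells, with medians of 0.10, -0.03 and 0.12. Targets of the aryl hydrocarbon receptor, which senses microbial and dietary indoles, had no call in any class. The list of receptors for short-chain fatty acids and bile acids also holds genes that are not such receptors, among them Hdac3, Slc16a1 and Slc5a8. Its median in macrophage-like cells was -0.70, with 7 of 8 measured members below both SPF libraries, beside 31.7% of all genes. Of these members 1 (Vdr) was called lower, beside 3.6% of all genes.

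Genes of cholesterol synthesis in fibroblast-like cells had a median of 0.52, with 9 of 15 above both SPF libraries, beside 34.8% of all genes, and none called, and the median was 1.09 against SPF 1 but 0.24 against SPF 2. Mitochondrial transcripts of the kept cells had medians from -0.96 in neutrophil-like cells to -0.05 in fibroblast-like cells, and 12 of 12 measured members lay below both SPF libraries in neutrophil-like cells, beside 37.2% of all genes. Genes of other cells that free RNA could bring in, such as epithelial and collagen genes, had a median of -0.75 against SPF 1 and 0.35 against SPF 2 in monocyte-like cells, the order of the epithelial-like shares. Over all classes and lists with at least 4 members measured, 171 of 250 pairs had no member called, beside 0.174% to 8.54% of all genes called per class.

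A cluster of shallow cells with defensin transcripts, at a median of 749.5 UMIs and left unnamed, held 2.26% of SPF 1, 0.82% of SPF 2 and 0.53% of the antibiotic library. Maf in cluster 6 stood at 58.4, 51.7 and 142 CPM and Hnrnpll at 18.1, 22.7 and 63.3 CPM, the latter from 14, 8 and 21 cells. Olfr889, an olfactory receptor gene, was called higher in fibroblast-like cells at 0, 32.7 and 98.3 CPM, with 97.4% of the antibiotic UMIs in 1 cell.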
